A study of Gallus gallus with 12 samples.

Results

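The subject is the arm of a small RNA sequencing study of chicken embryos in which the chick's own miR-302 was the target of a construct labelled as a knockdown. GFP-positive (GFP+) cells of that arm were set against the GFP-negative (GFP-) cells sorted alongside them. The members were chosen from the sample labels alone, as the 3 GFP+ and 3 GFP- knockdown libraries, which are 6 of the 12 libraries in the series. Every hairpin of the chicken-aligned table was followed in them, 850 in all, of which 610 had a value above 0 in at least 1 of the 6 libraries. The 123 hairpins that averaged 10 or more normalized reads across these libraries entered the test.

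Embryos were electroporated with a vector expressing GFP together with a construct to delete chick miR-302, and grew to Hamburger-Hamilton stages HH4-5. The GFP- cells carry the same knocked-down label as the GFP+ cells, and their titles name each of them the control of the GFP+ library with its number. GFP marks cells that took up the vector. The sources used here do not give the share of GFP+ cells that carried a deletion or the number of embryos behind a library. The other arm, labelled as overexpressing human miR-302 and sorted in the same way, enters only where the GFP contrasts of the arms are compared. Because separate embryos are not stated for the replicates, p-values reflect no more than the scatter of these libraries, part of which may be technical.

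A microRNA is cut from a hairpin precursor, loaded into an Argonaute protein, and lowers the output of messenger RNAs that pair with its seed. The miR-302 hairpins lie in a cluster with miR-367, are abundant in pluripotent cells and early embryos of vertebrates, and decline as cells differentiate. let-7 microRNAs do the reverse in many animals, since Lin28 blocks their maturation in early cells and they build up during differentiation. A stage HH4-5 chick embryo is at gastrulation, when the primitive streak is at full length and germ layers are forming, before liver, muscle or circulating blood have formed.

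The hairpins of the chicken-aligned table held 49276, 82211 and 80407 reads in GFP+ replicates 1 to 3 and 325485, 277633 and 435716 in GFP- replicates 1 to 3. All 3 GFP+ libraries were thus shallower than all 3 GFP- libraries. A single read was worth 0.866, 0.476 and 0.558 normalized reads in the GFP+ libraries and 0.142, 0.158 and 0.0999 in the GFP- libraries, so low values are coarser in GFP+ cells. Where no read was found, 3 reads allowed up to 2.60, 1.43 and 1.67 normalized reads in the GFP+ libraries, for counting error alone. All levels below are the deposited normalized reads per hairpin, and each fold is GFP+ against GFP- on the log2(value + 1) scale, which understates the change of low hairpins.

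The targeted family came first. Its 4 miR-302 hairpins remained among the more abundant microRNAs of the GFP+ cells. None of them, nor gga-mir-367, was called different by limma when the libraries were not paired. With same-number libraries taken as pairs, limma called gga-mir-302b lower, as given below. In sorted bulk cells, fewer cells of a type and less RNA per cell cannot be told apart. gga-mir-302b, the most abundant hairpin of the 6 libraries, stood at 6152, 4402 and 6112 in GFP+ and 8556, 6429.6 and 7328 in GFP- replicates 1 to 3. Each GFP+ library lay below each GFP- library (log2 fold -0.43, SE 0.20, limma adjusted p = 0.14). gga-mir-302d had 5345, 4061 and 5338 in GFP+ and 6763, 5489 and 6137 in GFP- replicates 1 to 3, and again the groups did not overlap (log2 fold -0.33, SE 0.18, limma adjusted p = 0.203). Such separation was common, as 61 of the 123 tested hairpins (49.6%) had non-overlapping groups. In 34 of the 123 (27.6%) the GFP+ libraries were the lower ones. The family's median log2 fold was -0.33, against -0.18 over all tested hairpins. gga-mir-302a had 4843, 2802 and 4845 in GFP+ and 5540.0, 4832 and 5231 in GFP- replicates 1 to 3. Its highest GFP+ values, in replicates 1 and 3, lay just above the lowest GFP- value (log2 fold -0.36, SE 0.24, limma adjusted p = 0.28).

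The scarcer hairpins of the cluster overlapped between the groups. gga-mir-302c had 1506, 605 and 1278 in GFP+ and 1353, 1033 and 1035 in GFP- replicates 1 to 3 (log2 fold -0.10, limma adjusted p = 0.866). gga-mir-367, which comes from the same primary transcript as miR-302 but has another seed, had 35.5, 15.2 and 26.8 in GFP+ and 27.4, 20.6 and 37.8 in GFP- replicates 1 to 3 (log2 fold -0.18, limma adjusted p = 0.814). gga-mir-1811, a bird hairpin that lies within 50 kb of the family on chromosome 4 in the RefSeq table, had 103, 42.8 and 86.4 in GFP+ and 76.2, 46.3 and 76.8 in GFP- replicates 1 to 3 (log2 fold 0.16, limma adjusted p = 0.821). In all 6 hairpins of the cluster GFP+ replicate 2 was the lowest GFP+ library. The signs for gga-mir-302c and gga-mir-367 turned positive under some scalings, given in the closing part, and that for gga-mir-1811 turned negative with TMM scaling over all hairpins.

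**Figure D1:**
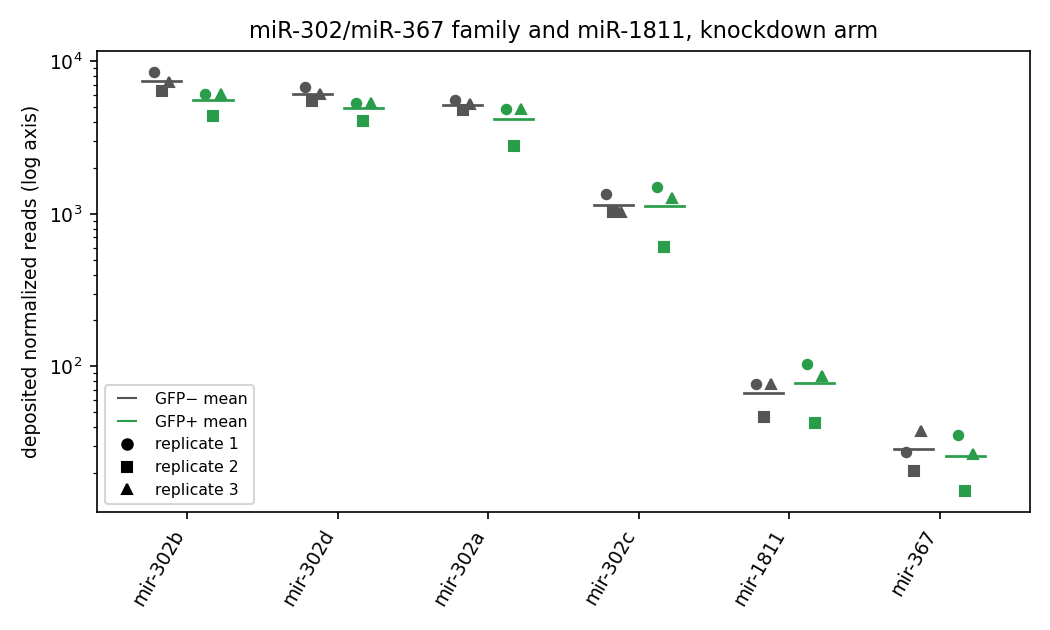
Normalized reads (log axis) of the 5 miR-302/miR-367 hairpins and gga-mir-1811 in each knockdown library, with GFP+ and GFP- libraries as separate points. Symbols mark the replicate number and bars the group means. The 3 GFP+ points of gga-mir-302b and gga-mir-302d lie below all 3 GFP- points, while those of gga-mir-302c, gga-mir-367 and gga-mir-1811 overlap. Groups did not overlap in 61 of the 123 tested hairpins (49.6%).

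Taking the shared replicate numbers as pairs changed the call for 1 member of the family. With the replicate number as a block, limma called gga-mir-302b lower (log2 fold -0.43, adjusted p = 0.0282), while gga-mir-302d (adjusted p = 0.0863) and gga-mir-302a (adjusted p = 0.13) stayed above 0.05. With the block and TMM scaling, a setting chosen after the data were seen, limma gave gga-mir-302b an adjusted p of 0.046. edgeR, run only without the block, gave gga-mir-302b an adjusted p of 0.281. Within the family, the shares were as follows. gga-mir-302b made up 35.4% ± 1.44 of it in GFP+ and 37.2% ± 1.19 in GFP- cells (SD, n = 3 each). gga-mir-302d made up 31.5% ± 2.35 and 30.8% ± 0.323, and gga-mir-302a 26.1% ± 2.17 and 26.2% ± 1.14. gga-mir-302c made up 6.92% ± 1.69 and 5.71% ± 0.433. The order of the 4 was the same in both groups, and no test was made of the shares.

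The family's share of the library depended on what it was divided by. Of all hairpin reads, the miR-302/miR-367 family took 41.9, 30.4 and 39.3% in GFP+ replicates 1 to 3 and 48.1, 40.7 and 45.4% in GFP- replicates 1 to 3. The GFP+ library was the lower one in 3 of 3 same-number pairs. The let-7 and the endoderm and liver hairpins together took 16.1 ± 2.66% of GFP+ and 1.68 ± 0.800% of GFP- reads (SD, n = 3 each). With those hairpins left out of the total, the family took 44.2 ± 5.93% in GFP+ and 45.5 ± 4.02% in GFP- cells, and was lower in 2 of 3 pairs. That measure was chosen after the values had been seen. The hairpins left out took more of the GFP+ reads in these same libraries. Leaving them out must therefore raise the family's share more in GFP+ than in GFP- cells, whatever the cause. On the scale without those hairpins the log2 fold of gga-mir-302b was -0.12 (limma adjusted p = 0.623), which is no separate test of the family.

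Across all tested hairpins, limma called 37 of 123 (30.1%), with 23 higher in GFP+ cells (18.7%) and 14 lower (11.4%). All 37 had non-overlapping groups, as did 61 of the 123 in all (49.6%). The median log2 fold of the tested hairpins was -0.18, and 48 hairpins had an unadjusted p under 0.05. edgeR called 23 higher (18.7%) and 7 lower (5.69%), and DESeq2 27 higher (22.0%) and 14 lower (11.4%). With the replicate number as a block, limma called 24 higher (19.5%) and 14 lower (11.4%). All 23 rises were called by both tools, whereas 7 of the 14 falls were called by edgeR and 14 by DESeq2. Of the 107 hairpins with a mean of at least 10 in both groups, 12 were called higher and 13 lower. A further 14 were tested through their GFP+ level alone, and 11 of the rises are among these, where the filter itself favours a difference. Another 2 were tested through their GFP- level alone, and 1 of them, gga-mir-455, was called lower.

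**Figure D2:**
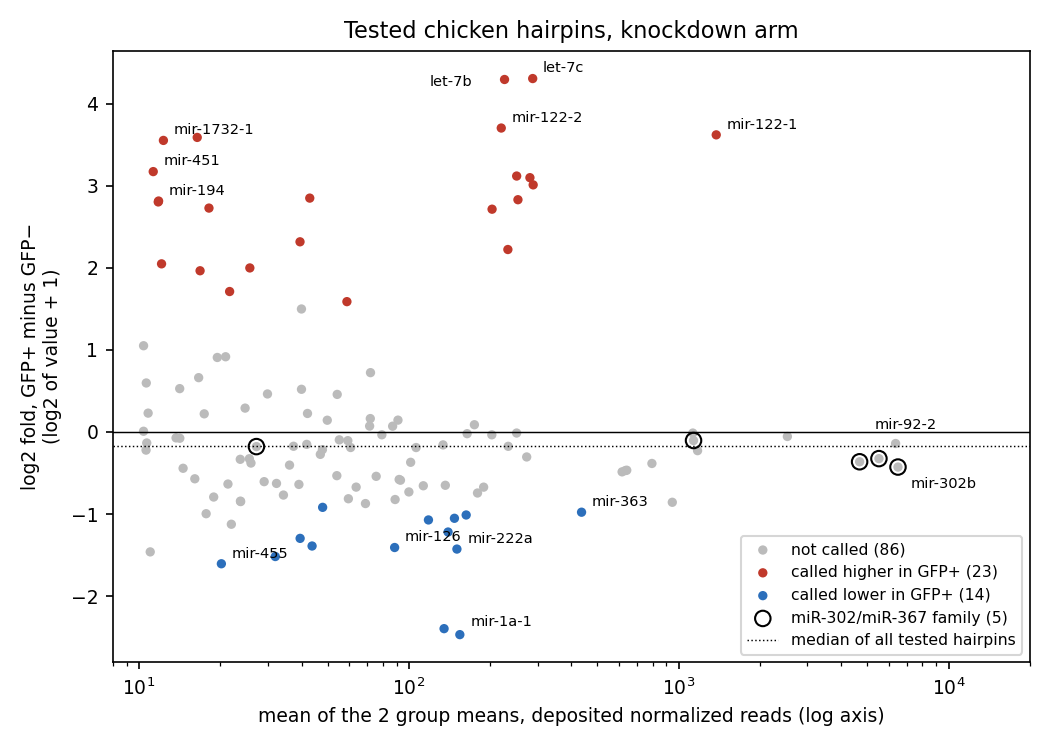
Each of the 123 tested hairpins by its mean level over the 6 knockdown libraries (x axis, normalized reads, log scale) and its log2 fold of GFP+ over GFP- cells (y axis), with the called hairpins coloured by direction. gga-let-7b, gga-let-7c and the miR-122 hairpins stand at the top, and the abundant miR-302 and miR-92 hairpins lie near the median of -0.18.

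The let-7 hairpins, differentiation-linked microRNAs found across animals, gave the 2 largest rises. All 11 let-7 hairpins with reads were tested and all 11 rose, against 18.7% higher over all tested hairpins. Their median log2 fold was 2.85, against -0.18 over all tested hairpins. gga-let-7d and gga-let-7i entered the test through their GFP+ level alone, where the filter itself favours a rise. The other 2 in the table (gga-let-7l-1 and gga-let-7l-2) had no read in the 6 libraries. Summed, the let-7 hairpins stood at 3276, 4161 and 3963 in GFP+ and 692, 429.8 and 308 in GFP- replicates 1 to 3. GFP- replicate 1 held the most let-7 of its group, and was still far below every GFP+ library. gga-let-7c had 416, 557 and 666 in GFP+ and 48.5, 23.0 and 15.9 in GFP- replicates 1 to 3 (log2 fold 4.31, SE 0.41, limma adjusted p = 0.000355). gga-let-7b had 379, 418 and 487 in GFP+ and 43.9, 17.8 and 11.2 in GFP- replicates 1 to 3 (log2 fold 4.29, SE 0.45, limma adjusted p = 0.000355). Both rose in 3 of 3 pairs, as did the other 9.

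The rest of the let-7 hairpins rose by less. gga-let-7g had 384, 377 and 586 in GFP+ and 76.2, 51.3 and 31.3 in GFP- replicates 1 to 3 (log2 fold 3.12, SE 0.36). The copies gga-let-7a-1, gga-let-7a-2 and gga-let-7a-3 had log2 folds of 3.10, 2.71 and 2.83. Near-identical copies can draw on one pool of reads, and the sources used here do not say how these were split, so their values may not be separate measurements. gga-let-7j had 442, 613 and 479 in GFP+ and 101, 54.3 and 43.3 in GFP- replicates 1 to 3 (log2 fold 3.01). gga-let-7i, at 65.8, 79.4 and 83.1 in GFP+ and 10.7, 10.4 and 8.09 in GFP- replicates 1 to 3, passed the filter through GFP+ cells alone (log2 fold 2.85), as did gga-let-7d (log2 fold 2.05). gga-let-7f (log2 fold 2.22) and gga-let-7k (log2 fold 1.59, limma adjusted p = 0.0154) were at the low end. The call for gga-let-7k was lost without GFP+ replicate 1 (limma adjusted p = 0.0677) or GFP+ replicate 2 (0.0509), and that for gga-let-7d without GFP- replicate 2 (0.0599).

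Hairpins known from liver and endoderm rose with them. Of the 8 such hairpins in the table, 4 were tested and all 4 rose, against 18.7% higher over all tested hairpins. Their median log2 fold was 3.22, against -0.18 over all tested hairpins. gga-mir-375 and gga-mir-194 entered the test through their GFP+ level alone, where the filter itself favours a rise. The others were copies of miR-122, so the 4 are not separate outcomes. A further 3 of the list (gga-mir-122b, gga-mir-122b-1 and gga-mir-122b-2) had no read, and the last had reads but did not reach the filter. gga-mir-122-1, from the microRNA that dominates the adult liver and acts in lipid metabolism, had 2121, 2701 and 2732 in GFP+ and 420.2, 182 and 108 in GFP- replicates 1 to 3 (log2 fold 3.62, SE 0.44, limma adjusted p = 0.000416). Its lowest GFP+ library was above its highest GFP- library, which was GFP- replicate 1. gga-mir-122-2 had 301, 449 and 464 in GFP+ and 66.7, 20.5 and 18.7 in GFP- replicates 1 to 3 (log2 fold 3.70, limma adjusted p = 0.000444). Its reads can be shared with gga-mir-122-1.

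The other 2 tested members were scarcer, and both passed the filter through GFP+ cells alone. gga-mir-375, known from pancreatic islets and pituitary, had 31.2, 16.2 and 50.2 in GFP+ and 4.83, 4.57 and 1.998 in GFP- replicates 1 to 3 (log2 fold 2.73, limma adjusted p = 0.00457). gga-mir-194, known from intestine and liver, had 28.6, 14.3 and 21.7 in GFP+ and 2.13, 2.05 and 2.10 in GFP- replicates 1 to 3 (log2 fold 2.81, limma adjusted p = 0.00116). The 4 hairpins are known from liver, intestine, pancreatic islets or pituitary, tissues that the labels do not name. The GFP+ libraries were also the shallower ones throughout, as given above. The part of cell type or of depth in these rises was not tested.

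Some hairpins that neighbour a let-7 gene rose with it. By the RefSeq table, gga-mir-99a and gga-mir-125b-2 lie within 50 kb of gga-let-7c on chromosome 1, and gga-mir-100 and gga-mir-125b-1 within 50 kb of gga-let-7a-2 on chromosome 24. miR-125 is the vertebrate relative of the worm timing microRNA lin-4, and miR-99 and miR-100 share a seed. gga-mir-125b-2 had 57.2, 68.0 and 74.2 in GFP+ and 14.5, 11.8 and 11.3 in GFP- replicates 1 to 3 (log2 fold 2.32, SE 0.29, limma adjusted p = 0.000444). gga-mir-125b-1 (log2 fold 1.998, limma adjusted p = 0.00963) and gga-mir-99a (log2 fold 1.96, limma adjusted p = 0.0148) were called too. gga-mir-100 had 42.5, 95.6 and 38.5 in GFP+ and 10.2, 36.9 and 16.3 in GFP- replicates 1 to 3. It was not called (log2 fold 1.498, limma adjusted p = 0.069), but passed with the replicate block (limma adjusted p = 0.0205), and its groups did not overlap. GFP+ replicate 2 and GFP- replicate 2 were the highest of their groups for it. Of the 4 hairpins of these families, 3 rose (against 18.7% of all tested hairpins) and none fell, with a median log2 fold of 1.98. Of these rises gga-mir-99a and gga-mir-125b-1 passed the filter through GFP+ cells alone. gga-mir-135a-1, within 50 kb of gga-let-7g on chromosome 12, had 20.8, 10.5 and 26.2 in GFP+ and 17.2, 19.4 and 10.6 in GFP- replicates 1 to 3, with overlap, and was not called (log2 fold 0.22, limma adjusted p = 0.798).

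Among the remaining rises were scarce hairpins of mixed kind, all of which passed the filter through GFP+ cells alone. gga-mir-451, from an erythroid microRNA that is matured by Argonaute rather than Dicer, had 35.5, 14.7 and 13.4 in GFP+ and 2.42, 0.945 and 0.699 in GFP- replicates 1 to 3 (log2 fold 3.17, limma adjusted p = 0.00245). gga-mir-124a-2, from the main microRNA of neurons, had 24.3, 32.8 and 44.6 in GFP+ and 10.9, 8.03 and 9.29 in GFP- replicates 1 to 3 (log2 fold 1.71, limma adjusted p = 0.00769). The groups did not overlap in either. Of 11 tested hairpins numbered 1400 or above that have no human hairpin of the same number, 3 rose and none fell (18.7% and 11.4% over all tested), with a median log2 fold of -0.014. They were gga-mir-1692 with 35.5, 22.8 and 35.1 in GFP+ and 2.56, 1.42 and 1.10 in GFP- replicates 1 to 3 (log2 fold 3.59), gga-mir-1732-1 (log2 fold 3.55) and gga-mir-1790 (log2 fold 2.80). With the replicate block 1 more of them, gga-mir-2131, was called, as lower (log2 fold -1.46, limma adjusted p = 0.0298 against 0.118 without it). It had 4.33, 1.90 and 11.7 in GFP+ and 17.9, 8.66 and 21.5 in GFP- replicates 1 to 3, with overlap, and passed the filter through GFP- cells alone. Behind the gga-mir-1732-1 values stood 20, 42 and 60 reads in GFP+ and 8, 8 and 7 in GFP- replicates 1 to 3.

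**Figure D3:**
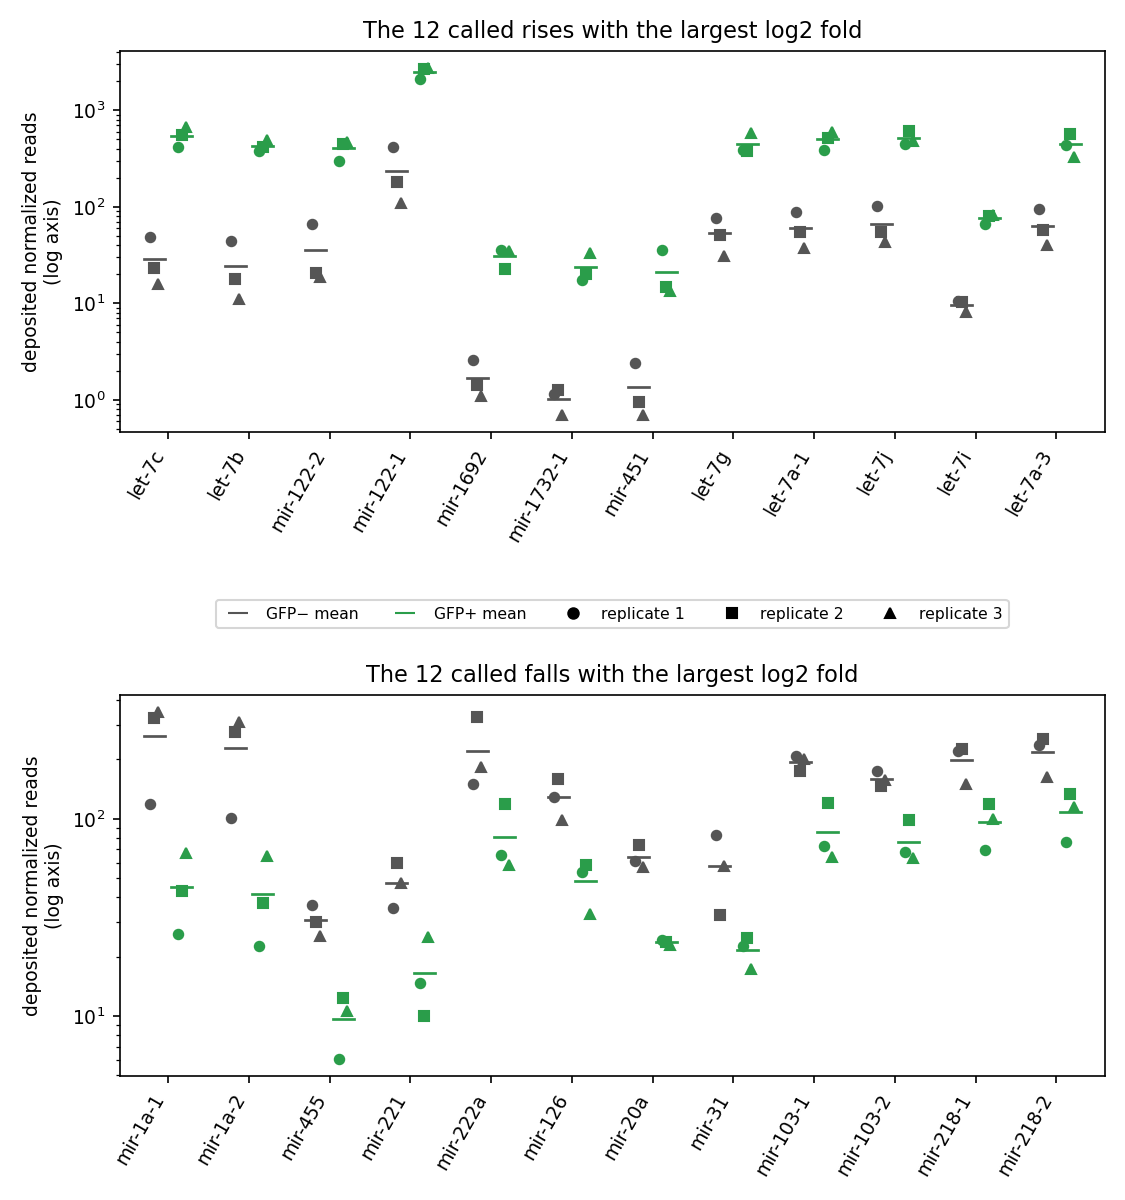
Normalized reads (log axis) in each of the 6 knockdown libraries for the called hairpins with the largest folds, rises and falls in separate panels, with GFP+ and GFP- libraries as separate points. In each hairpin shown the 3 GFP+ points lie on one side of the 3 GFP- points.

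The falls were smaller, and fewer of them held across tools and left-out libraries. The muscle hairpin gga-mir-1a-1 and its copy gga-mir-1a-2 fell most, and miR-1 is known to promote heart and skeletal muscle differentiation. gga-mir-1a-1 had 26.0, 42.8 and 66.9 in GFP+ and 119, 324 and 348 in GFP- replicates 1 to 3 (log2 fold -2.47, SE 0.49, limma adjusted p = 0.00567), and gga-mir-1a-2 had a log2 fold of -2.40 (limma adjusted p = 0.00874). GFP- replicate 1 was the lowest of its group and still above every GFP+ library. gga-mir-206, the other muscle hairpin tested, had 18.2, 23.8 and 32.9 in GFP+ and 17.8, 18.7 and 5.59 in GFP- replicates 1 to 3 and was not called (log2 fold 0.91, limma adjusted p = 0.203).

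gga-mir-126, gga-mir-20a and gga-mir-363 also fell. gga-mir-126, from the endothelial microRNA that lies in an intron of EGFL7, had 53.7, 58.5 and 32.9 in GFP+ and 129, 159 and 98.3 in GFP- replicates 1 to 3 (log2 fold -1.41, SE 0.32, limma adjusted p = 0.0107). gga-mir-20a, from the cluster of miR-17 that favours proliferation, had 24.3, 23.8 and 22.9 in GFP+ and 61.0, 73.7 and 57.0 in GFP- replicates 1 to 3 (log2 fold -1.39, SE 0.27, limma adjusted p = 0.00516). gga-mir-363, which shares the miR-92 seed, had 274, 356 and 255 in GFP+ and 521, 569.5 and 643 in GFP- replicates 1 to 3 (log2 fold -0.98, SE 0.22, limma adjusted p = 0.00968). The groups of all 3 stood apart. gga-mir-20a and gga-mir-363 were the 2 called among 12 tested hairpins of the families of miR-17 and miR-92, a share near the 11.4% lower over all tested hairpins, and the median log2 fold of the 12 was -0.69. gga-mir-92-2, the most abundant of them, had 5249, 6494 and 6402 in GFP+ and 6084, 7796 and 6169 in GFP- replicates 1 to 3, with overlapping groups (log2 fold -0.14, limma adjusted p = 0.631).

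The neighbouring pair gga-mir-221 and gga-mir-222a, which share a seed and lower the cell-cycle inhibitor p27 in mammals, both fell. gga-mir-222a had 65.8, 118 and 58.0 in GFP+ and 149.7, 329 and 183 in GFP- replicates 1 to 3 (log2 fold -1.43, limma adjusted p = 0.0215). gga-mir-221 had a log2 fold of -1.52 (limma adjusted p = 0.0206). Both calls were lost without GFP+ replicate 1 (limma adjusted p = 0.0649 for gga-mir-221 and 0.0737 for gga-mir-222a). Both were also lost without GFP- replicate 2 (0.0801 and 0.0801). Leaving out GFP- replicate 3 ended the call of gga-mir-221 (0.064), and leaving out GFP+ replicate 3 that of gga-mir-222a (0.0623).

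The other falls named here were gga-mir-455 (log2 fold -1.61), gga-mir-31 (log2 fold -1.30), the copies gga-mir-103-1 and gga-mir-103-2 (log2 folds -1.22 and -1.07), the copies gga-mir-218-1 and gga-mir-218-2 (log2 folds -1.05 and -1.01) and gga-mir-16c (log2 fold -0.92). miR-103 lies in introns of pantothenate kinase genes and miR-218 in introns of SLIT genes. gga-mir-455 had 6.06, 12.4 and 10.6 in GFP+ and 36.5, 30.1 and 25.5 in GFP- replicates 1 to 3, and its call was lost without GFP- replicate 1 (limma adjusted p = 0.0589). gga-mir-218-1 had 69.3, 119 and 99.8 in GFP+ and 221, 225 and 151 in GFP- replicates 1 to 3, with no overlap. Its call was lost without GFP- replicate 1 (limma adjusted p = 0.0673), GFP- replicate 2 (0.0948) or GFP+ replicate 1 (0.0836). gga-mir-103-1 lost its call without GFP+ replicate 1 (limma adjusted p = 0.0518). gga-mir-103-2 also lost it there (0.054), and gga-mir-218-2 lost its call without GFP- replicate 1 (0.0759), GFP- replicate 2 (0.124), GFP+ replicate 1 (0.101) or GFP+ replicate 3 (0.0543). gga-mir-31 was called only without GFP- replicate 2, and gga-mir-16c only without GFP+ replicate 2, among the 6 fits that leave out 1 library. Of the 14 falls, 5 were called whichever library was left out, against 21 of the 23 rises. With the replicate block, gga-mir-31 (limma adjusted p = 0.0536) and gga-mir-16c (0.0919) were no longer called.

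Markers of other cell types did not all move one way. Of 13 tested neural hairpins, 1 rose (gga-mir-124a-2) and 2 fell (gga-mir-218-1 and gga-mir-218-2), with a median log2 fold of -0.021, against 18.7% higher and 11.4% lower over all tested hairpins. These shares are no result about neural hairpins. Summed over the whole list, neural hairpins stood at 858, 1296 and 991 in GFP+ and 1282, 1373 and 1109 in GFP- replicates 1 to 3, which overlap. Muscle and cardiac hairpins summed to 71.0, 117 and 165 in GFP+ and 249.9, 639 and 688 in GFP- replicates 1 to 3, with no overlap. The largest part of each GFP- sum was gga-mir-1a-1, whose copy gga-mir-1a-2 was also called lower. gga-mir-206 had a log2 fold of 0.91 and was not called. Blood and endothelial hairpins summed to 93.6, 84.6 and 56.9 and 143.2, 168 and 107, also apart. Most of that sum was gga-mir-126, which fell, while gga-mir-451 rose. Among their defining markers, gga-mir-155 had no read. gga-mir-142, gga-mir-144 and gga-mir-223 did not reach the filter and were not tested. gga-mir-142 had a mean of 1.82 normalized reads in GFP+ and 0.337 in GFP- cells, from 8 and 8 reads in libraries of unequal depth. gga-mir-144 had means of 4.35 and 0.993 (24 and 22 reads), and gga-mir-223 had 2.62 and 7.81 (16 and 180 reads). Their part in the other changes was not tested.

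No hairpin was called among the tested members of the remaining lists. These were 3 epithelial hairpins (median log2 fold -0.57), 4 mesenchymal (-0.25), 4 of stress and inflammation (-0.27), 4 of miR-130/miR-301 (-0.63), 8 of miR-26/miR-30 (-0.28), 3 of miR-23/miR-24/miR-27 (0.14) and 2 of miR-101 (-0.58). Only 1 Hox-cluster hairpin was tested, gga-mir-10a, and it was not called (log2 fold 0.29). gga-mir-26a, among the highest of them, had 730.4, 1028 and 366 in GFP+ and 1093, 1099 and 1364 in GFP- replicates 1 to 3, without overlap but with GFP+ replicate 3 far below the other GFP+ libraries (log2 fold -0.86, limma adjusted p = 0.112). gga-mir-21 had 1152, 1184 and 916 in GFP+ and 1248, 1397 and 1152 in GFP- replicates 1 to 3, with overlap.

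**Figure D4:**
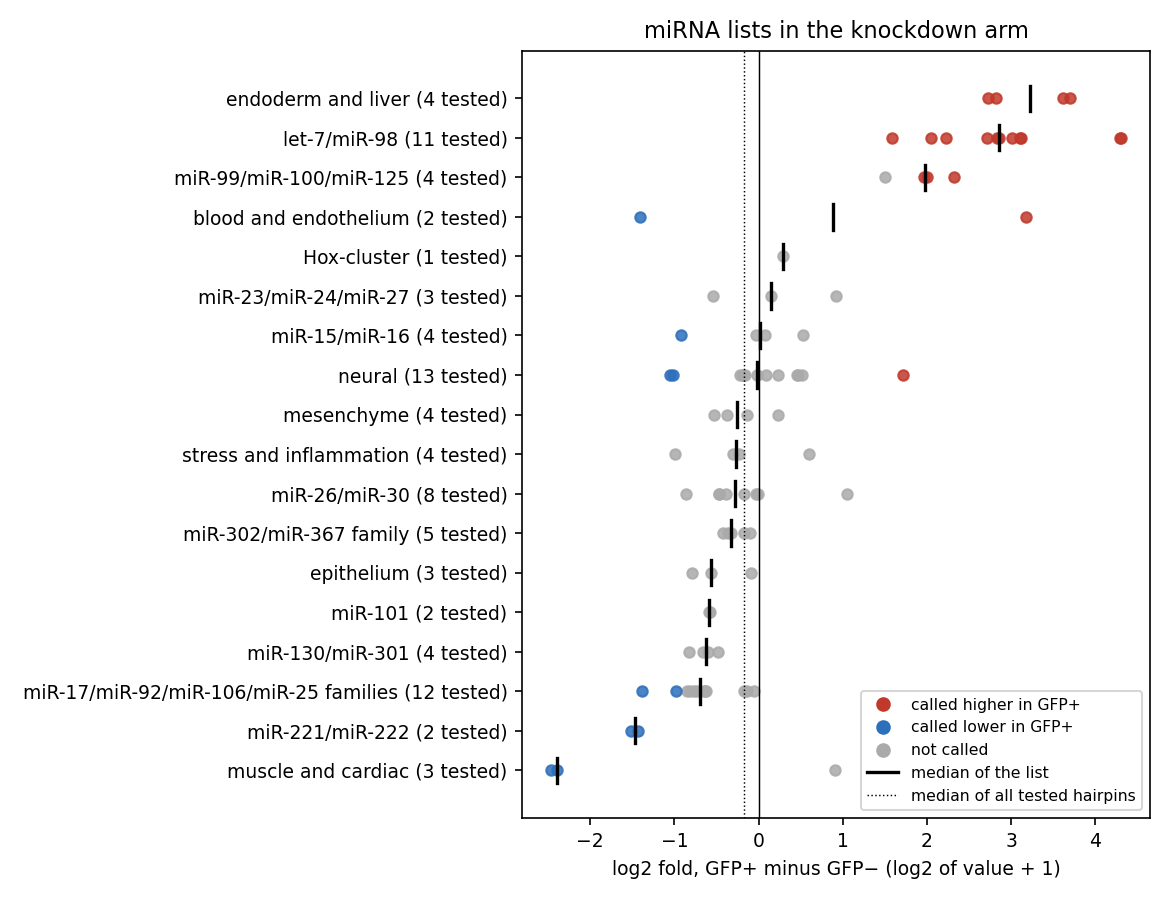
Log2 fold of GFP+ over GFP- cells (x axis) for each tested hairpin of each list (rows), with the list's median and, as a line, the median of all 123 tested hairpins at -0.18. All let-7 and all endoderm and liver hairpins lie to the right of 0, and both miR-221/miR-222 hairpins to the left.

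The human-aligned table of the same 6 libraries served as a check, with 26919, 48375 and 37975 hairpin reads in GFP+ replicates 1 to 3. It shares its reads with the chicken-aligned table and is no independent evidence. limma called 42 of 107 hairpins there (39.3%), with 29 higher (27.1%) and 13 lower (12.1%). Of the 81 with a mean of at least 10 in both groups, 8 were called higher and 13 lower. A further 24 were tested through their GFP+ level alone, where the filter itself favours a difference, and 21 of the rises are among these. edgeR called 30 higher (28.0%) and 24 lower (22.4%). Of the 12 risen chicken hairpins with a human hairpin of the same name tested, 12 were called higher there, and of 7 fallen ones 7 were called lower. This match by name leaves out gga-mir-122-1 and gga-mir-122-2. The endoderm and liver list summed to only 250, 183 and 217 in human-aligned GFP+ replicates 1 to 3. In the chicken-aligned GFP+ libraries it summed to 2486, 3191 and 3272. The levels of miR-122 are thus not checked by the match, and the cause of the gap was not tested. Over the 71 names tested in both tables, 63 folds had the same sign. hsa-mir-302b had 6588, 4362 and 4618 in GFP+ and 8511, 6332 and 6319 in GFP- replicates 1 to 3. Unlike those of gga-mir-302b, its groups overlapped, and it was not called by limma (log2 fold -0.45, adjusted p = 0.127). With the replicate block its limma adjusted p was 0.00452, and edgeR gave an adjusted p of 0.0402. hsa-mir-192, the liver and intestine partner of miR-194, had 115, 102 and 113 in GFP+ and 15.8, 6.38 and 7.21 in GFP- replicates 1 to 3, with no overlap (log2 fold 3.46, SE 0.37, limma adjusted p = 0.000102). It passed the filter through GFP+ cells alone, and no miR-192 hairpin was tested in the chicken-aligned fit.

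Whether the changes were particular to the knockdown was asked by comparing the GFP contrast between the arms. Over 132 hairpins, limma called 0 differences (0.0%), with 9 at an unadjusted p under 0.05 and a smallest adjusted p of 0.0558 for gga-mir-367. edgeR also called 0, with 3 at an unadjusted p under 0.05. The GFP+ libraries of the overexpression arm held only 3856, 1292 and 1789 reads, so differences would be hard to detect at this depth. Of the 20 knockdown rises tested in both fits, 17 had the same sign in the overexpression arm and 10 were called higher there, where 9.09% of 132 were. All 10 were let-7 hairpins or the copies gga-mir-122-1 and gga-mir-122-2, and near-identical copies may not be separate measurements. None of the knockdown rises outside let-7 and miR-122 was called there. Their limma adjusted p ran from 0.0635 (gga-mir-1692) to 0.934 (gga-mir-125b-1). Those without the same sign were gga-let-7i, gga-mir-99a and gga-mir-125b-1, with log2 folds of -0.79, -0.43 and -0.13 there. Each of them had no read in overexpression GFP+ replicate 2. Of the 14 falls, 14 had the same sign and 5 were called lower, where 9.85% of 132 were. Over all 132 hairpins the median log2 fold of the overexpression arm was -0.67, with 89 below 0 (67.4%) and 43 above, so a shared negative sign is common there. The arms share no libraries, but the overexpression calls come from a limma fit of all 12 libraries, whose spread includes that of the knockdown libraries. The knockdown calls come from the 6 knockdown libraries alone.

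gga-mir-122-1 had 789, 731 and 1824 in GFP+ and 50.8, 106 and 81.8 in GFP- replicates 1 to 3 of the overexpression arm, a log2 fold of 3.72. The knockdown minus overexpression difference was -0.10 (SE 0.71). gga-let-7c had a log2 fold of 3.29 there and a difference of 1.01 (SE 0.74, limma adjusted p = 0.818). gga-let-7i had 26.7, 0 and 0 in GFP+ and 3.91, 4.10 and 4.72 in GFP- replicates 1 to 3 of that arm. A single read was worth 6.68, 24.4 and 15.9 normalized reads in those GFP+ libraries, above all 3 GFP- values, so its direction could not be measured there. Every miR-302 hairpin had a more negative fold there than in the knockdown arm. The median log2 fold was also lower there, at -0.67 over 132 hairpins against -0.18 over the 123 tested in the knockdown arm. The shared direction alone is thus no result about the family. gga-mir-302a was called lower there (log2 fold -1.37, limma adjusted p = 0.0378). It had 715, 1804 and 904 in GFP+ and 1551, 4584 and 2855 in GFP- replicates 1 to 3 of that arm, with overlap. gga-mir-302c (log2 fold -0.70), gga-mir-302d (-0.78) and gga-mir-302b (-0.78) were not called there. No miR-302 hairpin was called different between the arms (limma adjusted p of 0.818 or above). gga-mir-367 had no read in any overexpression GFP+ library, against 27.3, 17.2 and 13.9 in its GFP- libraries. limma called it lower there (log2 fold -4.30, limma adjusted p = 0.000687). The limit that 3 reads set in those GFP+ libraries, 20.1, 73.1 and 47.6 normalized reads, is at or above most of these GFP- values. Only the limit of GFP+ replicate 1 lay below a GFP- value, the 27.3 of GFP- replicate 1. The size of this fall could thus not be measured at this depth.

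**Figure D5:**
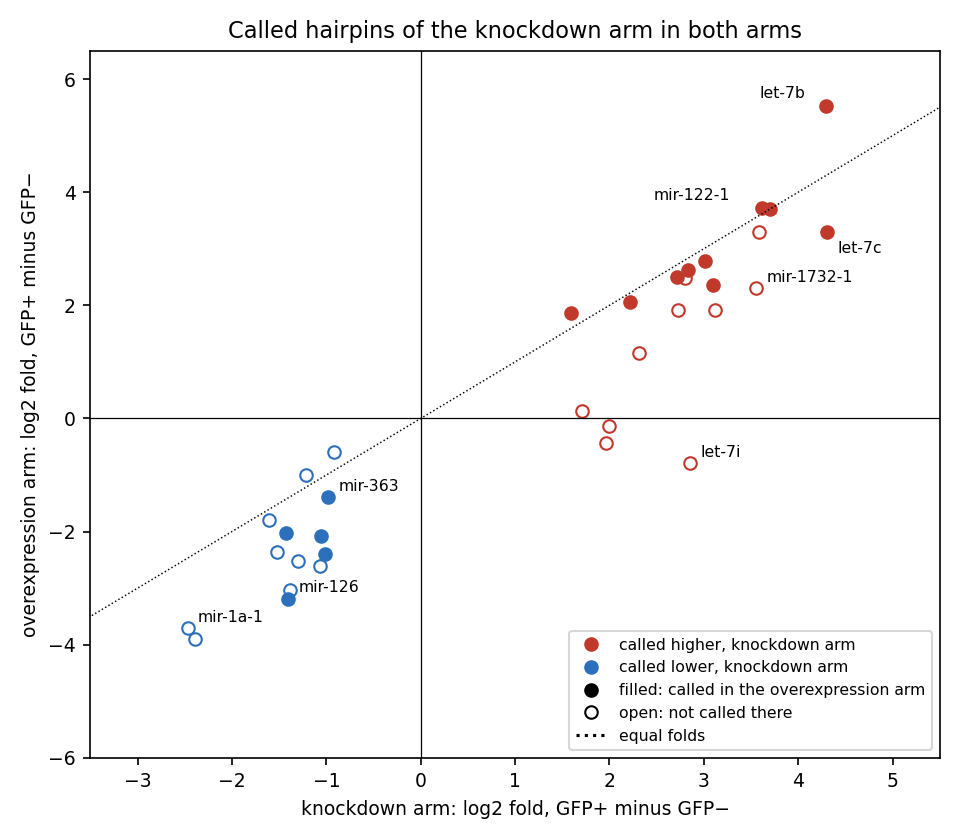
Log2 fold of GFP+ over GFP- cells in the knockdown arm (x axis) against that in the overexpression arm (y axis) for the 20 risen and 14 fallen hairpins of the knockdown arm that entered both fits, filled where they were also called in the overexpression arm. gga-let-7b, gga-let-7c and gga-mir-122-1 lie at the upper right, gga-let-7i, with reads in 1 of the 3 overexpression GFP+ libraries, lies below 0 on the y axis, and no hairpin was called different between the arms.

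Lowering the filter to a mean of at least 1 brought 202 hairpins into the test and 12 more calls, 9 of them higher in GFP+ cells. The named ones were chosen after their values were seen. gga-mir-12249 had 14.7, 7.13 and 8.36 in GFP+ and 0.569, 0.630 and 0.599 in GFP- replicates 1 to 3 (log2 fold 2.73). gga-mir-196-2, a Hox-cluster hairpin, had a log2 fold of 1.74. gga-mir-1b, a muscle hairpin, was lower (log2 fold -2.92), with 4 reads over the 3 GFP+ and 236 over the 3 GFP- libraries. Such low values rest on few reads, and a hairpin that passes through 1 group alone had to differ to be tested.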

How the data were processed

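Small RNA libraries from sorted GFP+ and GFP- cells were prepared with the NEXTflex Small RNA-Seq Kit, per the labels' protocols. Per the submitters' processing notes, reads went through STAR 2.7.0f, FastQC 0.11.5 and cutadapt, and hg38 was used. The sources used here do not name the chicken build, the counting tool or the normalization factor. The authors deposited a normalized signal per hairpin and library, not counts, in a chicken-aligned and a human-aligned table. In every library 100% of values above 0 were whole multiples of 1 step (tolerance 0.001 reads), and whole reads were recovered from these. No mature arm was above 0, so only hairpins were used. Of 911 hairpin entries, 61 repeated a name, 5 of them above 0 in the knockdown libraries, and the one with the highest mean was kept, leaving 850. RefSeq symbols matched 779 of 850 and gave chromosomes and neighbours within 50 kb. Near-identical copies can share reads.

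Values were fitted as log2(value + 1) with limma 3.58.1 (R 4.3.3; empirical Bayes with trend, 6 knockdown libraries, two-sided), and a hairpin was called at a Benjamini-Hochberg adjusted p under 0.05 over all hairpins with a mean of at least 10. The recovered reads were also tested with DESeq2 1.42.0, whose missing adjusted p-values stayed missing, and with edgeR 4.0.16 by quasi-likelihood. The difference between the arms used all 12 libraries, as did the limma calls within the overexpression arm. The scripts were tested on simulated data. Same-number libraries deviated together in the chicken-aligned table (correlations of 0.18, 0.41 and 0.22) but not in the human-aligned one (0.059, -0.11 and -0.14). Correlations between libraries of unlike number ran from -0.31 to 0.16 in the chicken-aligned table and from -0.13 to 0.26 in the human-aligned one. The correlations are thus weak ground for the pairing. Single hairpins singled out after their values were seen, gga-mir-2954 and gga-mir-7b, did move together in same-number libraries, as given at the end. The titles name each GFP- library the control of its number, so the number was taken to pair the samples, and the fit with it as a block is printed where it changes a call.

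The members were set by the sample labels alone, while the lists and the naming rule were written with earlier results of these data known. Named were every miR-302/miR-367 hairpin and gga-mir-1811, up to 12 rises and 12 falls with the largest folds among non-overlapping calls, the 2 most abundant hairpins of each list, and the 5 most abundant hairpins. The remaining called hairpins are named for completeness, chosen after their values were seen. Other settings were tried for the pseudocount, the filter, the scaling, the tool, the libraries left out and the replicate block. No microRNA sequences were printed.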

Additional observations from a re-analysis of the deposited data

How the results depend on the processing

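The counts of rises held better than those of falls. With the mean filter at 50, 11 rises and 9 falls were called, with fewer hairpins tested, and with all 12 libraries in the fit 14 rises and 1 fall. The falls came to 9 with TMM scaling, 8 with the replicate block and TMM scaling, 7 with edgeR, 4 when scaled to hairpins outside the let-7 and liver lists and 37 with TMM over all hairpins, which moved the median log2 fold from -0.18 to -0.49. The rises under the scaling outside the lists and under TMM over all hairpins came to 23 and 23, and under TMM to 23. The block with TMM, TMM over all hairpins and the scaling outside the lists were chosen after seeing the data. Leaving out 1 library gave 22 to 24 rises and 6 to 16 falls, with 9 falls without GFP- replicate 1 or 2 and 6 without GFP+ replicate 1. With the replicate block alone, limma called 24 rises and 14 falls.

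In the human-aligned table the 29 rises became 54 with the filter at 1, 58 with no filter, 13 with the filter at 50, 10 with all 12 libraries and 27 to 32 without 1 library. The 13 falls became 7 with the filter at 50, 25 with TMM, 54 with TMM over all hairpins, 21 with the block and TMM, 32 with median-of-ratios scaling, 24 with edgeR, 0 with all 12 libraries and 5 to 15 without 1 library (8 without GFP- replicate 1, 5 without GFP- replicate 2). For the arms, 1 difference was called with a pseudocount of 0.5 and 0 to 6 without 1 library (6 without overexpression GFP+ replicate 1, 1 without its replicate 2). The cause of these moves was not tested where the filter or the libraries do not show it.

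No called hairpin changed its direction under the settings run. For the 53 named hairpins under settings that kept every library, 685 of 782 values kept their direction and call, 46 lost the call, 16 gained it and 35 changed sign. Hairpins near 0 turned under DESeq2 (gga-mir-302c 0.12, gga-mir-200b 0.14, gga-mir-92-1 0.079, gga-mir-16-2 0.11, gga-mir-128-1 0.14), TMM scaling, with the replicate block or without it (gga-mir-302c 0.032, gga-mir-200b 0.038, gga-mir-92-1 0.082, gga-mir-16-2 0.10, gga-mir-128-1 0.12), edgeR (gga-mir-92-2 0.0055, gga-mir-302c 0.098, gga-mir-200b 0.14, gga-mir-92-1 0.082, gga-mir-16-2 0.11, gga-mir-128-1 0.14), TMM over all hairpins (gga-mir-16-1 -0.26, gga-mir-128-2 -0.24, gga-mir-23b -0.18, gga-mir-1811 -0.16, gga-mir-10a -0.020) and the scaling outside the let-7 and liver lists (gga-mir-146c 0.0022, gga-mir-21 0.080, gga-mir-367 0.12, gga-mir-92-2 0.17, gga-mir-302c 0.20, gga-mir-200b 0.21, gga-mir-92-1 0.25, gga-mir-16-2 0.27, gga-mir-128-1 0.29). Leaving out 1 library gave lowest and highest folds of gga-mir-367 -0.44 and 0.15, gga-mir-302c -0.36 and 0.29, gga-mir-200b -0.41 and 0.42, gga-mir-92-1 -0.16 and 0.058, gga-mir-16-2 -0.12 and 0.054, gga-mir-128-1 -0.23 and 0.10, gga-mir-16-1 -0.045 and 0.15, gga-mir-128-2 -0.086 and 0.24, gga-mir-1811 -0.087 and 0.54, gga-mir-10a -0.23 and 0.95. The shallow GFP+ libraries limit what can be said of hairpins near 1 read.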

Other observations

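Some hairpins outside the naming rule were singled out after their values were seen, because single replicate numbers stood apart. gga-mir-2954, a hairpin on the Z chromosome by the RefSeq table, had 1499, 227 and 1638 in GFP+ and 1753, 230.4 and 1421 in GFP- replicates 1 to 3, low in both replicates numbered 2. gga-mir-7b, from a neural microRNA family, had 1.73, 89.9 and 3.35 in GFP+ and 1.99, 267 and 0.999 in GFP- replicates 1 to 3, high in both replicates numbered 2. gga-mir-489 had 346, 2.84 and 2.997 in GFP- replicates 1 to 3 and 13.0, 9.04 and 8.36 in GFP+, with its single high value in GFP- replicate 1.

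In the human-aligned table the hairpins hsa-mir-6724-1, hsa-mir-6724-3 and hsa-mir-6724-4 stood far higher in GFP+ replicate 3 than in any other knockdown library. hsa-mir-6724-3 had 39.0, 39.8 and 893 in GFP+ and 7.79, 7.69 and 5.87 in GFP- replicates 1 to 3. An hsa- name marks the hairpin a read was aligned to, not where it came from.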
